A study of Mus musculus with 34 samples.

Results

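The transcriptome of MOSJ-Dkk-1 cells treated with DkkMo during the log phase of growth was compared with that of cells treated with scrMo. MOSJ-Dkk-1 is 1 line of murine osteosarcoma cells, labelled with red fluorescent protein and modified with a lentiviral vector so that a cytomegalovirus promoter drives constitutive secretion of human Dkk-1. All groups carried this vector. DkkMo is a vivo morpholino, a synthetic antisense oligomer with a delivery group, directed against the start of the Dkk-1 transcript, and scrMo is a control vivo morpholino with mismatches to the same target. Cells were seeded at low density, received 5 µM of either morpholino 24 h after seeding and entered the log phase after 6 days of culture with regular changes of medium. Dose and times are those of the labels' protocol, and other passages of the study's text state a different dose and a collection time counted in weeks. The 6 cultures compared, 3 with DkkMo and 3 with scrMo, were identified by their labels among the 34 samples of the study. These samples also hold 3 log-phase cultures without morpholino (NT), 9 cultures under nutritional stress and 16 tumours. The comparison and the gene lists were chosen with earlier results of these data known. The difference between the group means was taken for 16562 genes of the 16576 listed, 14 rows being left out, and it is described here for 25 gene lists that cover matrix, contractile, lipid and metabolic programmes and the signalling around them.

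Dkk-1 is a secreted antagonist that binds the Wnt co-receptors LRP5 and LRP6 and thereby blocks canonical Wnt signalling, and in bone it restrains osteoblast differentiation. Cells of the osteoblast and fibroblast lineages build an extracellular matrix from fibrillar collagens, which are hydroxylated in the endoplasmic reticulum, trimmed outside the cell and cross-linked by lysyl oxidases, together with glycoproteins and proteoglycans that bind growth factors and integrins. Contractile genes such as smooth muscle actin are switched on by SRF and its actin-sensing co-activators when cells spread and pull on a matrix. Metabolic enzymes follow nutrient sensors, among them SREBP for sterols, MondoA for glucose phosphates and ATF4 for amino acids.

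Values are normalized counts, that is reads per gene divided by a size factor per library, and a log2 fold change is the mean variance-stabilised value with DkkMo less that with scrMo unless another pair is named, given ± its SE where one is printed. The variance-stabilised scale compresses genes with few reads, so that a fold change read from the normalized counts can exceed the log2 fold change printed beside it. Rose, fell, upward and downward likewise describe DkkMo against scrMo, not against NT, unless another pair is named. A gene passed the test at an adjusted p below 0.05 in limma, and it was called DE when its change also exceeded 1.5-fold. This threshold, a log2 fold change of 0.585 in either direction, was applied on the variance-stabilised scale. A gene with few reads can therefore miss the DE call although its normalized counts differ by more than 1.5-fold. Library sizes lay from 28.2 to 33.0 M reads on listed genes. Rank correlations between cultures of a group were at least 0.992. With 3 cultures in each group the smallest p an exact permutation test can give is 0.1, so the adjusted p values come from limma across all genes. Nothing in the labels says whether the 3 cultures were independent. The adjusted p values and SEs rest on a spread shared by all 18 cultures of the 6 groups, not on that of the 6 cultures compared alone. The lowest rank correlation within a group was 0.993 with DkkMo and 0.992 with scrMo in log phase, and at least 0.996 in the other groups. The shared spread can therefore be smaller than that of the groups compared. In bulk RNA, fewer cells of a type and less RNA per cell cannot be told apart.

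DkkMo replicate 2 stood apart for many of the genes described. Of the 275 upregulated DE genes, 240 had their highest DkkMo value in replicate 2, 20 in replicate 1 and 15 in replicate 3. Without replicate 2, 204 genes were called DE, of which 198 were among the 326 called with it. Values without this culture are therefore given beside many of the counts. The knock-down itself could not be read here, since the target is a human transcript and the reads were aligned to the mouse genome, and mouse Dkk1 had no value. None of the 4 adipocyte markers (Adipoq, Plin1, Lep and Cidec) had a value. Summed normalized counts of the 4 macrophage markers of 6 with a value ranged from 853 to 1072 with DkkMo and from 829.9 to 1091 with scrMo, with Lyz2 higher with DkkMo (0.36), Ptprc, Cd14 and Csf1r not passing, and Adgre1 and Cd163 unlisted. Of 5 endothelial markers Pecam1 and Vwf had a value, summing to 324 to 363 and 353 to 408, and neither passed. Of 5 epithelial markers only Krt8 had a value, at 1.11 to 5.96 with DkkMo and 8.02 to 14.6 with scrMo, where it passed downward (-0.15). Of 5 skeletal muscle markers only Acta1 had a value, at 1089 to 1145 and 1036 to 1094. Of the 8 markers of the bone and cartilage lineage, Runx2, Sox9 and Col1a1 were abundant, whereas Alpl, Bglap and Col2a1, markers of mature osteoblasts and cartilage, had at most 24.4 normalized counts in any of the 6 cultures, and Sp7 and Acan had no value. Col1a1 (1.29) and Alpl (0.21) passed upward, and Runx2, Sox9, Bglap and Col2a1 did not pass. Alpl had 14.4, 23.8 and 24.4 with DkkMo and 8.15, 7.88 and 7.02 with scrMo, without overlap. The part of Lyz2 or Krt8 expressing cells in the results below was not tested.

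Among all genes, 14.3% passed the test in the upward direction and 9.2% in the downward direction, and the shares called DE were 1.66% and 0.308%. The median log2 fold change over all genes was 0.0048. Over all genes the number that passed downward was 1523, but 849 without DkkMo replicate 2 and 972 without scrMo replicate 2. The control morpholino itself differed from NT at more genes than DkkMo did. Against NT, 1954 genes passed upward and 2411 downward with scrMo, and 887 upward and 738 downward with DkkMo. A difference between DkkMo and scrMo is therefore not by itself a change from NT. Of the 25 lists, the 4 matrix lists and the smooth muscle list moved upward most widely, and the list of ATF4 target genes was the one with most members lower. The lists hold 829 genes, 679 of which had a value, and these include 65 of the 326 DE genes, 60 upregulated and 5 downregulated. Counts and medians are set beside the same figures over all genes, because the lists were chosen with earlier results known and not tested as sets.

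**Figure D1:**
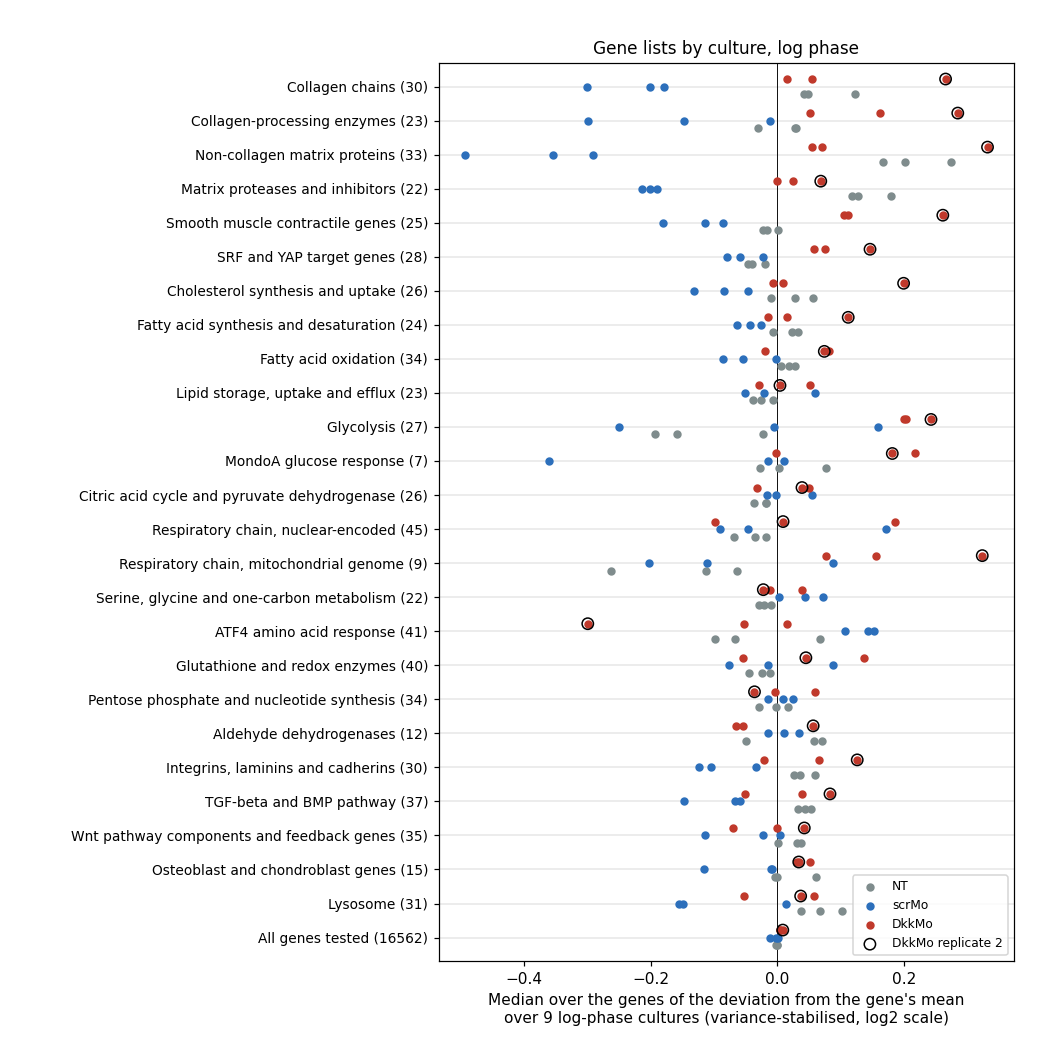
Median level of each gene list in the 9 log-phase cultures. The x axis is the median, over the measured genes of the list (number in parentheses), of the deviation from each gene's mean over the 9 cultures on the variance-stabilised log2 scale; each point is 1 culture (grey NT, blue scrMo, red DkkMo) and the open circle marks DkkMo replicate 2. For the non-collagen matrix list the 3 scrMo cultures lay between -0.49 and -0.29, and the 3 DkkMo cultures between 0.055 and 0.33, whereas in the glycolysis list scrMo replicate 1 lay at 0.16, near the DkkMo cultures.

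Collagen genes were higher with DkkMo than with scrMo. Of 30 collagen chains measured, 19 passed upward and 1 downward, 9 were upregulated DE genes, and the median log2 fold change was 0.34. The 9 were the fibrillar chains Col1a1, Col1a2, Col3a1, Col5a1 and Col5a2, the beaded-filament chains Col6a1 and Col6a2, and Col12a1 and Col16a1, which sit on the surface of fibrils. Without DkkMo replicate 2, 15 chains passed upward, 6 were upregulated DE genes and the median was 0.23.

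Col1a1 (chr11:94936224-94953042), the main chain of type I collagen and of bone matrix, had normalized counts of 18500.3, 32561 and 15444 with DkkMo and 12158, 6476 and 7535 with scrMo. The groups did not overlap, DkkMo replicate 2 standing highest, and the change on the log2 scale was 1.29 ± 0.20 (adjusted p = 0.000125). Its partner chain Col1a2 had counts of 28636, 40444 and 25397 with DkkMo and 18665, 12591 and 15140.1 with scrMo, a log2 fold change of 1.00 ± 0.13. Col12a1, which links fibrils to their surroundings, had the largest change of the list, with counts of 968, 3165 and 1216 with DkkMo and 464, 252 and 395 with scrMo. Its log2 fold change was 1.58 ± 0.23 and fell to 1.13 without DkkMo replicate 2, which held over 2 times the count of either other DkkMo culture. Col3a1, the chain of the type III fibrils of soft tissue, changed by 1.07 ± 0.17, with counts of 2925, 6058 and 3218 against 1797, 1459 and 1869.

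Basement membrane chains moved less, with log2 fold changes of 0.56 for Col4a1, 0.52 for Col4a5, 0.39 for Col4a6, 0.22 for Col4a2 and 0.32 for Col18a1. Col11a2, a chain of cartilage collagen, was the member that fell, from 90.7, 112 and 84.2 with scrMo to 34.4, 28.8 and 22.4 with DkkMo. Its log2 fold change was -0.51 ± 0.066 (adjusted p = 2.58e-05), and its NT counts of 21.3, 27.1 and 20.7 lay near those with DkkMo. The cartilage marker chain Col2a1 (0.11) and Col9a3 (0.14) did not pass.

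Of the 23 genes for enzymes that modify, trim and cross-link collagen, 16 passed upward and 1, Adamts14, downward, with a median of 0.34. With DkkMo replicate 2 left out, 12 passed upward. Pcolce, which enhances the trimming of procollagen C-propeptides, had counts of 13654, 17352 and 10694 with DkkMo and 8292, 4408 and 5652 with scrMo, without overlap, and a log2 fold change of 1.17 ± 0.16. All 3 measured alpha subunits of prolyl 4-hydroxylase passed, P4ha3 by 0.91, P4ha1 by 0.56 and P4ha2 by 0.50. Lox, the lysyl oxidase that cross-links collagen and elastin, had counts of 2906, 6699.8 and 3764 with DkkMo and 2802, 1909 and 3017 with scrMo. These groups overlapped, and the change of 0.67 ± 0.19 did not pass without DkkMo replicate 2 (0.35, adjusted p = 0.102) or without scrMo replicate 2 (0.49, adjusted p = 0.101). The collagen chaperone Serpinh1 (0.22) and Fkbp10 (0.22) did not pass, and neither did Ppib (-0.027).

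The list of non-collagen matrix proteins had the largest share of members that passed among the 25 lists. Of 33 measured, 27 passed upward and none downward, 15 were upregulated DE genes, and the median was 0.51, with 22 upward, 12 DE and 0.41 without DkkMo replicate 2, when Tgfbi passed downward. The largest change was that of Ogn, a small leucine-rich proteoglycan of bone, with counts of 764, 2885 and 842 with DkkMo and 263, 203 and 253 with scrMo. The groups did not overlap, and the log2 fold change was 1.66 ± 0.26, or 1.14 without replicate 2.

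Members of the CCN family of matricellular proteins followed. Ccn3, which inhibits osteoblast differentiation, had counts of 3303, 7292 and 4313 with DkkMo and 1600.3, 1234 and 1501 with scrMo (log2 fold change 1.54 ± 0.17). Ccn5, which lacks a domain the others share, had counts of 510.1, 1004 and 399 with DkkMo and 144, 46.1 and 72.2 with scrMo, a mean 7.30-fold higher with DkkMo, while its log2 fold change on the compressed scale was 1.51 ± 0.16. Ccn4, a Wnt-induced member, changed by 0.69 ± 0.063, and Ccn1, listed with the SRF and YAP targets, by 0.72 ± 0.11. Thrombospondin 1, which activates latent TGF-beta, was high in all 3 DkkMo cultures, with Thbs1 counts of 19452, 39390.1 and 24941 against 10177, 7495 and 10247 and a change of 1.51 ± 0.16.

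Elastic fibre and microfibril genes rose as well, Fbln5 by 1.06, Ltbp2 by 0.94, Fbln1 by 0.73, Efemp2 by 0.69, Emilin1 by 0.60 and Fbn1 by 0.58. The basement membrane linkers Nid2 and Nid1 rose by 1.14 and 0.48, and Sparc, a collagen-binding protein of bone, by 0.84. Fn1, fibronectin, had counts of 140759, 170975 and 170735 with DkkMo and 126806, 117872 and 134933 with scrMo, without overlap, but the change was small at 0.34 ± 0.093. Values were 0.092 for Tnc and -0.086 for Dcn, which did not pass. Dcn, decorin, had 15.5, 14.9 and 12.2 with DkkMo, 8.15, 42.8 and 17.0 with scrMo and 124, 106 and 186 in NT.

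Proteases that degrade the matrix and their inhibitors rose side by side. Of 22 measured, 13 passed upward and 2 downward, 6 were upregulated DE genes, and the median was 0.27. Leaving out DkkMo replicate 2, 11 passed upward and 5 were upregulated DE genes. Mmp13, collagenase 3, had counts of 778, 1107 and 991 with DkkMo and 362, 251 and 378 with scrMo, a log2 fold change of 1.07 ± 0.10. Gelatinase A, Mmp2, changed by 0.76 ± 0.10 and its membrane-bound activator Mmp14 by 0.62 ± 0.085. The inhibitors Timp3 and Timp2 changed by 1.00 ± 0.084 and 0.82 ± 0.11, Timp3 with 4172, 4565 and 4473 against 2221, 1695 and 2300.3. Plau, the urokinase plasminogen activator, rose by 0.86, while its receptor Plaur fell by 0.25. Ctsk, the collagen-degrading cathepsin of osteoclasts, was low and fell, with 13.3, 18.9 and 17.3 against 38.7, 68.6 and 48.1.

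The scrMo cultures themselves differed from NT in these lists. DkkMo and scrMo were each set beside the same 3 NT cultures, so that the 3 differences share samples and are set side by side without a test between them. The median log2 fold change of the collagen chains was -0.015 for DkkMo minus NT and -0.27 for scrMo minus NT. For the non-collagen matrix proteins the medians were -0.067 and -0.66, for the proteases and inhibitors -0.099 and -0.41, and for the collagen-processing enzymes 0.10 and -0.11. The 33 matrix genes called DE were chosen by DkkMo minus scrMo, where their median was 0.84. Their medians were 0.079 for DkkMo minus NT and -0.88 for scrMo minus NT. All 33 passed as lower in scrMo than in NT, beside 2411 of all 16562 genes. Choosing genes by DkkMo minus scrMo favours low scrMo values, which scrMo minus NT reuses, so this count is no result about them. For DkkMo against NT, 5 passed upward, 2 downward and 26 did not pass, beside 887 upward and 738 downward among all genes. Col1a1 in NT had counts of 15121, 17678 and 17004, of which replicate 1 lay just below the lowest DkkMo culture and the others within the DkkMo range. Col3a1 in NT had 4994, 6267 and 6499, overlapping DkkMo only through DkkMo replicate 2, and the change of DkkMo against NT was -0.57. Thbs1 in NT had 14986, 14328 and 14107, below every DkkMo culture and above every scrMo culture. Under nutritional stress, in separate cultures, the median DkkMo minus scrMo difference of the 4 lists ranged from -0.053 for the non-collagen proteins to 0.032 for the proteases and inhibitors. Over all genes, the difference between the log-phase and stress effects passed the interaction test for 22.2%.

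**Figure D2:**
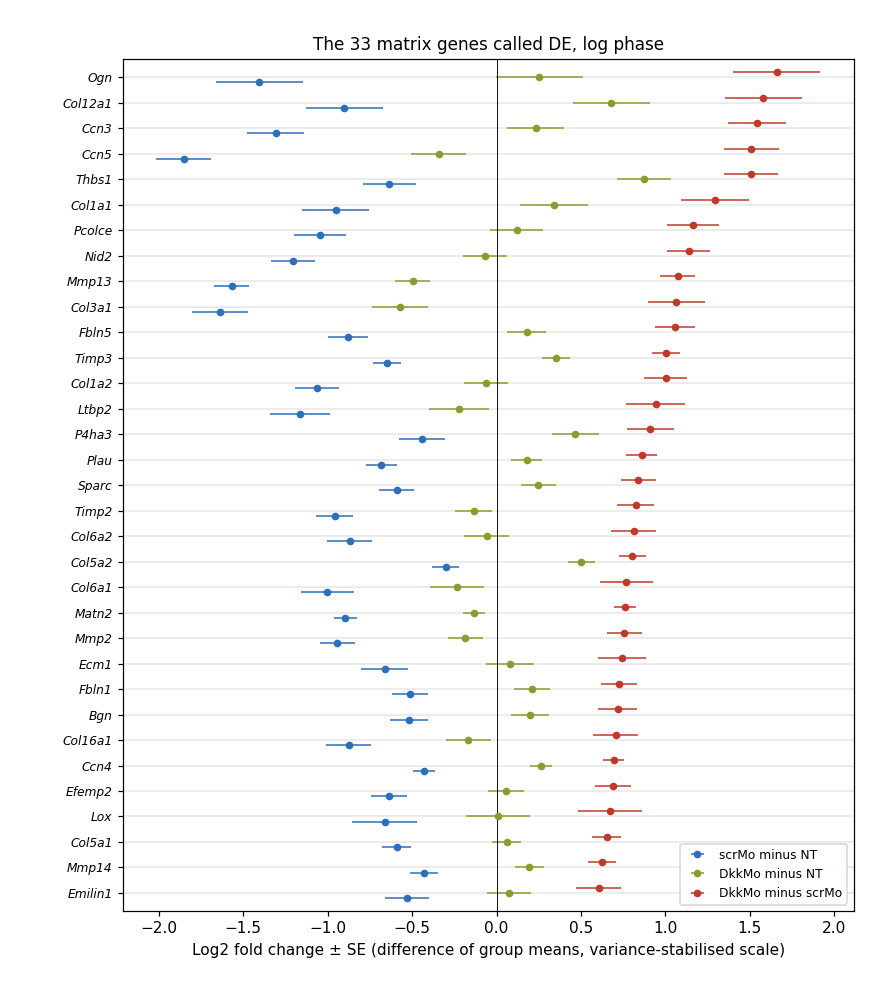
Log2 fold change with its SE of the 33 matrix genes called DE, on the variance-stabilised scale, for DkkMo minus scrMo (red), DkkMo minus NT (olive) and scrMo minus NT (blue), 3 log-phase cultures per group. The genes were chosen by the red values; Ogn heads the list at 1.66, with DkkMo minus NT at 0.25 and scrMo minus NT at -1.41.

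Smooth muscle contractile genes rose. Of 25 measured, 17 passed upward and none downward, 6 were upregulated DE genes and the median was 0.28. Without DkkMo replicate 2, 12 passed upward, 4 were DE and the median was 0.27. Acta2 (chr19:34241090-34255590), alpha smooth muscle actin and the marker of myofibroblasts, had counts of 3465, 3849 and 2934 with DkkMo, 679, 269 and 383 with scrMo and 1286, 836 and 866 in NT. Every DkkMo culture exceeded every scrMo and NT culture, the mean was 7.70-fold that with scrMo, and the log2 fold change amounted to 2.43 ± 0.15 (adjusted p = 3.35e-08), and it was 2.35 when replicate 2 was left out. Against NT the change with DkkMo was 1.55 and with scrMo -0.88.

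Actg2, enteric smooth muscle actin, showed the same order of groups, with 579.9, 533 and 505 with DkkMo, 206, 149 and 145 with scrMo and 267, 180.1 and 193 in NT. Its log2 fold change was 0.99 ± 0.071, DkkMo cultures again lying above all others. Actin paralogs share coding sequence, and how reads that map to several places were counted is not given in the sources used here, so the split between Acta2, Actg2 and Acta1 is uncertain. Acta1, the skeletal paralog, had 1089, 1145 and 1129 and 1084, 1036 and 1094, and did not pass (0.053).

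Regulators and binding partners of the contractile apparatus moved less. Mylk, myosin light chain kinase, had 556, 775 and 659 with DkkMo and 308, 307 and 344 with scrMo, a log2 fold change of 0.69 ± 0.068. The calponin Cnn2 rose by 0.69, the LIM protein Csrp1 by 0.67 and the actin nucleator Lmod1 by 0.59. Tropomyosins Tpm2, Tpm4 and Tpm1 rose by 0.49, 0.45 and 0.31, without being called DE. Tagln, another widely used smooth muscle marker, was read at 71.0, 78.5 and 64.1 with DkkMo and 56.1, 70.9 and 66.2 with scrMo and did not pass (0.047), and non-muscle myosin Myh9 (0.11), Myh10 (0.048) and desmin, Des (0.077), did not pass either.

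Targets of SRF and YAP outside the contractile apparatus moved more narrowly. Of 28 measured, 10 passed upward and none downward, 5 were upregulated DE genes (Ccn1, Filip1l, Vcl, Crim1 and Amotl2), and the median was 0.11. Only Ccn1 and Filip1l were DE without DkkMo replicate 2, and the median was then 0.067. The DE members likewise numbered 2 without scrMo replicate 2 and 3 without DkkMo replicate 3. Vcl, vinculin, which anchors actin at focal adhesions, had 8667, 11792 and 10668 with DkkMo and 6526, 6089.6 and 7406 with scrMo. The YAP targets Ccn2 (0.18) and Ankrd1 (0.045) and the factors Srf (-0.048), Mrtfa (0.12) and Yap1 (0.0046) did not pass. DkkMo minus NT had a median of 0.13 in this list and 0.18 in the contractile list, and scrMo minus NT -0.081 and -0.15.

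RefSeq promoters, from 250 bases before to 50 after a gene's start on GRCm38.p6, were at hand for 10521 of the genes tested and were searched on both strands for the CArG box bound by SRF. It was present in 1.63% of these genes, in 7 of 22 members of the SRF and YAP list and in 2 of 20 of the contractile list. The 3 members with a box that were called DE are shown with 20 bases on either side, the box in capitals, on the strand of the gene, from chr10:79988524-79988573 (plus), chr14:20929151-20929200 (plus) and chr16:57549160-57549209 (plus).
Cnn2: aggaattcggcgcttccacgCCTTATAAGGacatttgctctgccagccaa
Vcl: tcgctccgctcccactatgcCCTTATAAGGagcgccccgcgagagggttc
Filip1l: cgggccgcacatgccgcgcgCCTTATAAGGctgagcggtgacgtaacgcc
All 3 carried the same 10 letters, beginning -56 bases from the start site in Cnn2, -227 in Vcl and -62 in Filip1l. Acta2 had no match within its window and Actg2 had no window. Such matches describe letters only.

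Receptors for the matrix and growth factor genes were mixed. Of 30 integrin, laminin and cadherin genes, 13 passed upward and 3 downward, with a median of 0.15. Itga11, the alpha chain of a collagen receptor of mesenchymal cells, had 213, 377 and 226 with DkkMo and 78.5, 37.1 and 58.1 with scrMo, without overlap, and a log2 fold change of 0.94 ± 0.10. Itgb3, a chain of vitronectin receptors, rose by 0.64, and the focal adhesion adaptor Parva by 0.50. With DkkMo replicate 2 removed, 10 passed upward, the median was 0.092 and Itga11 alone was DE. Lower were Itgb7 (-0.49), Parvb (-0.39) and Pxn (-0.29).

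In the TGF-beta and BMP pathway, 12 of 37 passed upward and 3 downward, with a median of 0.057. The ligand Bmp7 (chr2:172868012-172940321), a bone morphogenetic protein, had 2142, 1971 and 2293 with DkkMo, 4677, 3999 and 4551 with scrMo and 2272, 1920.4 and 2312 in NT. The scrMo cultures lay above all others, and the log2 fold change of DkkMo minus scrMo was -0.96 ± 0.070 (adjusted p = 9.27e-08) while DkkMo minus NT was -0.018. The BMP target Id3 moved the other way, with 629.8, 1438 and 469.9 with DkkMo and 277, 215 and 208 with scrMo, a change of 1.12 ± 0.19 that became 0.76 without DkkMo replicate 2. Further BMP feedback and target genes that passed upward were Smad6 (0.56), Smad9 (0.48) and Id2 (0.43). Grem1, a BMP antagonist, changed by 0.41 and did not pass, nor did Smad7 (-0.11). The number passing was 9 upward and 1 downward without DkkMo replicate 2, and 6 passed downward without scrMo replicate 1.

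Of 35 Wnt pathway genes, 10 passed upward and 4 downward, and the median was 0.074. The Dkk-1 receptor genes Lrp5, Lrp6 and Kremen1 did not pass. Lrp5 had 2127, 2514 and 2303 with DkkMo and 2177, 2124 and 2183 with scrMo. Lrp6 had 2284, 2814 and 2842 with DkkMo and 2309, 2841 and 2953 with scrMo. For Kremen1, which binds Dkk-1 together with them, the values were 2207, 2945 and 2548 and 2114, 2489 and 2409, and all 3 pairs of groups overlapped. The other reported Dkk-1 receptor, Ckap4, had 5988, 5943 and 5532 with DkkMo and 5052, 4316 and 4383 with scrMo, without overlap, and a change of 0.33 ± 0.055. Axin2, the feedback gene most used as a readout of canonical signalling, was read at 16.6, 32.8 and 19.3 with DkkMo and 11.2, 24.8 and 25.1 with scrMo. Its groups overlapped and it did not pass (0.034 ± 0.068). At counts as low, Alpl passed with a change of 0.21, while a smaller change in Axin2 could have been missed. Dkk3, a divergent member of the family, had 1718, 2544 and 1841 with DkkMo, 1189.5, 802 and 1045 with scrMo and 2189, 2552 and 2741 in NT, a change of 0.84 ± 0.11. Among ligands and receptors of the pathway, Wnt7b fell by 0.54, Wnt10b by 0.16 and Lgr6 by 0.36, while Wnt5a rose by 0.24, Wnt5b by 0.25, Fzd1 by 0.24, Fzd2 by 0.29 and Ryk by 0.31. Upward calls in the list numbered 7 and the median was 0.014 without DkkMo replicate 2, and downward calls 8 without scrMo replicate 1.

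Among the lipid lists, that of cholesterol synthesis and uptake held the most DE genes. Of 26 genes of cholesterol synthesis and uptake, 11 passed upward and 2 downward, 3 were upregulated DE genes, and the median was 0.16. Excluding DkkMo replicate 2, 8 passed upward, 1 was DE and the median was 0.090. For DkkMo minus NT the median of the list was 0.041, with 0 passing upward and 1 downward. For scrMo minus NT it was -0.13, with 1 passing upward and 8 downward. Insig1, the sterol-induced brake on SREBP processing and itself an SREBP target, had 4183, 5563 and 4613 with DkkMo, 2751, 2259 and 2726 with scrMo and 4671, 4942 and 5207 in NT. DkkMo overlapped NT and scrMo lay below both, with a log2 fold change of 0.82 ± 0.089. Cyp51, lanosterol demethylase, changed by 0.59 ± 0.10 and was no longer called DE without DkkMo replicate 2 (0.39, still with an adjusted p below 0.05) or without scrMo replicate 2 (0.55), settings under which 1 gene of the list was DE. Squalene epoxidase, Sqle (0.13), did not pass, and Mvd fell by 0.27. A sterol regulatory element spelled TCACNCCAC was found in the promoter window of 1 of 19 members, Hmgcs1, and in 1.38% of all genes with a window.

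Fatty acid genes moved in both directions and by little. Of 24 genes of fatty acid synthesis and desaturation, 8 passed upward and 4 downward, none was DE, and the median was 0.12. Upward were the desaturase Fads2 (0.39), the elongase Elovl5 (0.35) and malic enzyme, Me1 (0.34). Downward were the enzymes that commit carbon to new fatty acids, acetyl-CoA carboxylase, Acaca, with 1729.8, 1814 and 1995 against 2229, 2528 and 2476, and fatty acid synthase, Fasn, with 9279, 11079.5 and 10187 against 11045, 12787 and 12095. The Acaca groups did not overlap (-0.34 ± 0.058) and the Fasn groups did (-0.23 ± 0.076). Of 34 genes of fatty acid oxidation, 9 passed upward and 3 downward with a median of 0.090, the trifunctional protein subunits Hadha (0.27) and Hadhb (0.28) and Cpt1c (0.34) among the former. Ppara, the receptor that drives oxidation, was low, at 5.54, 5.96 and 11.2 with DkkMo and 15.3, 32.6 and 37.1 with scrMo (-0.30 ± 0.065), and Hsd17b4, of peroxisomal oxidation, fell by 0.23. In the oxidation list 5 passed upward without scrMo replicate 2 and 5 downward without DkkMo replicate 1, and when DkkMo replicate 2 was left out 6 passed upward, 2 downward and the median was 0.058. The synthesis list then had 6 upward calls and a median of 0.076.

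Lipid storage split between droplet coats. Of 23 genes, 5 passed upward and 3 downward, with a median of -0.025, or 4 upward and 0.019 without DkkMo replicate 2. Plin4, a perilipin of nascent droplets, had 1052, 2346 and 1069.9 with DkkMo and 558, 476 and 531 with scrMo, without overlap, and a log2 fold change of 1.09 ± 0.16, or 0.77 without DkkMo replicate 2. Plin2, the ubiquitous perilipin, moved the other way, with 18034, 14945 and 16465 against 20473, 21183 and 20978 (-0.34 ± 0.064), and the triglyceride lipase Pnpla2 fell by 0.30. The DkkMo and scrMo groups of Plin2 did not overlap, and NT lay at 15854, 15903 and 15454. The adipogenic receptor Pparg rose by 0.36, the lysosomal lipase Lipa by 0.35 and the endocytic receptor Lrp1 by 0.48. Adipocyte-defining genes were absent from the table, as given above.

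**Figure D3:**
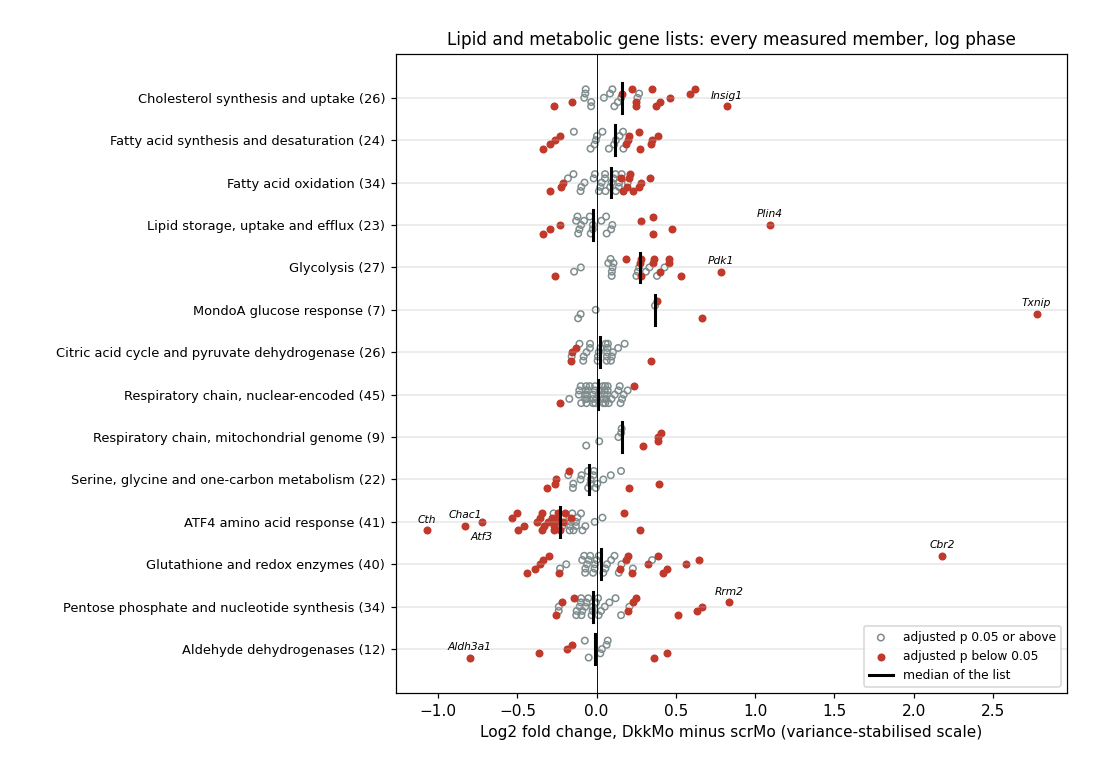
Log2 fold change, DkkMo minus scrMo, of every measured gene of 14 lipid and metabolic lists (number in parentheses). Filled red points had an adjusted p below 0.05 and the black bar is the median of the list; Txnip lay at 2.78, apart from the rest of its list, the 41 ATF4 targets were shifted below 0 with a median of -0.23, and the 45 nuclear-encoded respiratory genes were centred at 0.012.

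The largest change of all genes was that of Txnip (chr3:96557957-96561883), the thioredoxin-interacting protein that limits glucose uptake and is induced by MondoA when glucose phosphates accumulate. Counts were 2733, 3086 and 2148 with DkkMo, 280.3, 138 and 148 with scrMo and 1343, 353 and 225 in NT. NT replicate 1 stood apart, no NT or scrMo culture reached a DkkMo culture, and the log2 fold change stood at 2.78 ± 0.28 (adjusted p = 1.88e-06). Its promoter window held a carbohydrate response element, the paired E boxes bound by MondoA, spelled CACGNG and CNCGNG with 5 bases between them. This open spelling was taken, after the values had been seen, because the stricter pair CACGNG and CNCGTG was found in none of the 5 list members with a window and in 0.057% of all genes with a window. The open form was present in 0.836% of genes with a window and in no other member. It is shown in capitals with 20 bases on either side, from chr3:96557852-96557908, plus strand, starting -85 bases from the start site.
Txnip: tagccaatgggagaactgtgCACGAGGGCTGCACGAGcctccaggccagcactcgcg
Its relative Arrdc3, another arrestin-domain gene and MondoA target, rose by 0.67 and Bhlhe40 by 0.38, while Klf10 (0.37) and the factors Mlxip (-0.12) and Mlx (-0.10) did not pass. The median of the 7 measured genes was 0.37 and depended on scrMo replicate 2, being 0.14 without it.

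Glycolytic genes were higher with DkkMo on the whole, with less separation between cultures. Of 27 measured, 11 passed upward and 1, the lactate transporter Slc16a1, downward, and the median was 0.28. Pdk1, which restrains entry of pyruvate into the mitochondrion, was the DE member, with 2257, 2629.8 and 2518 with DkkMo and 1917, 713 and 1592 with scrMo (0.78 ± 0.19). Ldha, lactate dehydrogenase, had 35547, 34324 and 32564 with DkkMo and 35192, 16478 and 27829 with scrMo, with scrMo replicate 1 inside the DkkMo range, and did not pass (0.43 ± 0.17, adjusted p = 0.0756). In NT, Ldha had 21079, 16496 and 15706, below every DkkMo culture, and the median of the list was 0.34 for DkkMo minus NT and 0.14 for scrMo minus NT. These counts depended on single scrMo cultures, since 18 genes passed upward and 6 were DE without scrMo replicate 1, and 6 passed, none was DE and the median was 0.14 without scrMo replicate 2. In the absence of DkkMo replicate 2, 6 passed upward. Beside Pdk1, the kinase isoforms Pdk4 (0.36) and Pdk3 (0.28), hexokinase 1, Hk1 (0.46), phosphofructokinase, Pfkl (0.53), and enolase 3, Eno3 (0.45), passed upward, while Gapdh (0.25), Pkm (0.27), Pgk1 (0.33) and the glucose transporter Slc2a1 (0.26) did not pass. Collagen prolyl and lysyl hydroxylases P4ha1, P4ha2 and Plod2 likewise had their lowest scrMo value in replicate 2, P4ha2 having 3905, 1924 and 3018 with scrMo against 4089.5, 4037 and 4307 with DkkMo.

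The citric acid cycle and the nuclear-encoded respiratory chain hardly moved, whereas 4 of 9 coding transcripts of the mitochondrial genome passed upward. Of 26 genes of the citric acid cycle and pyruvate dehydrogenase, 1 (Idh1, 0.34) passed upward and 3 (Idh3b, -0.16, Aco1, -0.15, and Dlat, -0.13) downward, with a median of 0.019. Of 45 nuclear-encoded respiratory chain genes, 1 (Cox6c, 0.24) passed upward and 1 (Atp5h, -0.23) downward, with a median of 0.012. Each of these 6 calls was lost when 1 culture or another was left out, and without scrMo replicate 1 as many as 10 respiratory genes passed upward. Without DkkMo replicate 1, 6 genes of the citric acid cycle list passed downward. The 9 genes measured from the mitochondrial genome had a median of 0.16, with mt-Nd6 (0.41), mt-Co1 (0.39), mt-Nd5 (0.38) and mt-Cytb (0.29) passing upward, the last of these not without DkkMo replicate 2. The mitochondrial ribosomal RNAs went the other way, mt-Rnr2 with 24174, 26824 and 27577 with DkkMo, 58097, 82079 and 59879 with scrMo and 12886, 14824 and 15054 in NT (-1.32 ± 0.11). Here DkkMo lay between the other groups, and all 3 were separate.

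Targets of ATF4, the factor that raises amino acid import, synthesis and tRNA charging when amino acids run short, were lower with DkkMo. Of 41 measured, 23 passed downward and 2 (Atf5 and Slc38a1) upward, 3 were downregulated DE genes, and the median was -0.23. This breadth rested on DkkMo replicate 2, without which 9 passed downward, 3 were DE and the median was -0.13. Cth (chr3:157894248-157925077), which makes cysteine from cystathionine, had 646, 416 and 578 with DkkMo, 1259, 1478 and 1529.5 with scrMo and 1071, 914 and 873 in NT. The groups were separate, with DkkMo lowest and scrMo highest, and DkkMo differed from scrMo by -1.07 ± 0.096 (adjusted p = 6.5e-07), or -0.95 without DkkMo replicate 2. Chac1, which degrades glutathione, had 3518, 2402 and 2922 with DkkMo and 5555, 5722 and 4968 with scrMo, with NT at 3017, 2555 and 2529.7, and changed by -0.83 ± 0.098. Atf3, a stress-induced factor of the same family, had 794, 635 and 859 with DkkMo and 1171, 1781 and 1374 with scrMo, without overlap (-0.73 ± 0.16).

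Members with other roles in the response passed downward as well, the stress factors Nupr1 (-0.54) and Ddit3 (-0.50), the cystine importer subunits Slc7a11 (-0.49) and Slc3a2 (-0.36), the glycine transporter Slc6a9 (-0.46) and asparagine synthetase, Asns (-0.27). Tars (-0.34), Wars (-0.33) and Lars (-0.31) were the tRNA synthetases with the largest falls. Trib3 (-0.27), Ddit4 (-0.13) and Gdf15 (-0.071) did not pass. In scrMo minus NT the median of the list was 0.15, in DkkMo minus NT -0.068, and in DkkMo minus scrMo under nutritional stress -0.13.

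The promoter windows of 31 of these genes were searched for the C/EBP-ATF response element, spelled TGATGNAA and chosen after the values had been seen. It was found in 15 of the 31, in 10 of the 18 of them that passed the test, and in 2.72% of all genes with a window. Elements of 4 members with lower values are shown in capitals with 20 bases on either side, on the gene's strand, from chr2:119351029-119351076 (plus), chr1:191183416-191183463 (minus), chr7:126625553-126625600 (minus) and chr3:50443633-50443699 (minus).
Chac1: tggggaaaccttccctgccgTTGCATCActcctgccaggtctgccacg
Atf3: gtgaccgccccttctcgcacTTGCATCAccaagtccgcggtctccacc
Nupr1: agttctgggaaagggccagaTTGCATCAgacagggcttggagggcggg
Slc7a11: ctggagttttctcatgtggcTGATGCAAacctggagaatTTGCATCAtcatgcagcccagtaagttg
In Chac1, Atf3 and Nupr1 the capitals are the element read on the opposite strand, and Slc7a11 held it on both strands. Cth had no window in the table used.

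**Figure D4:**
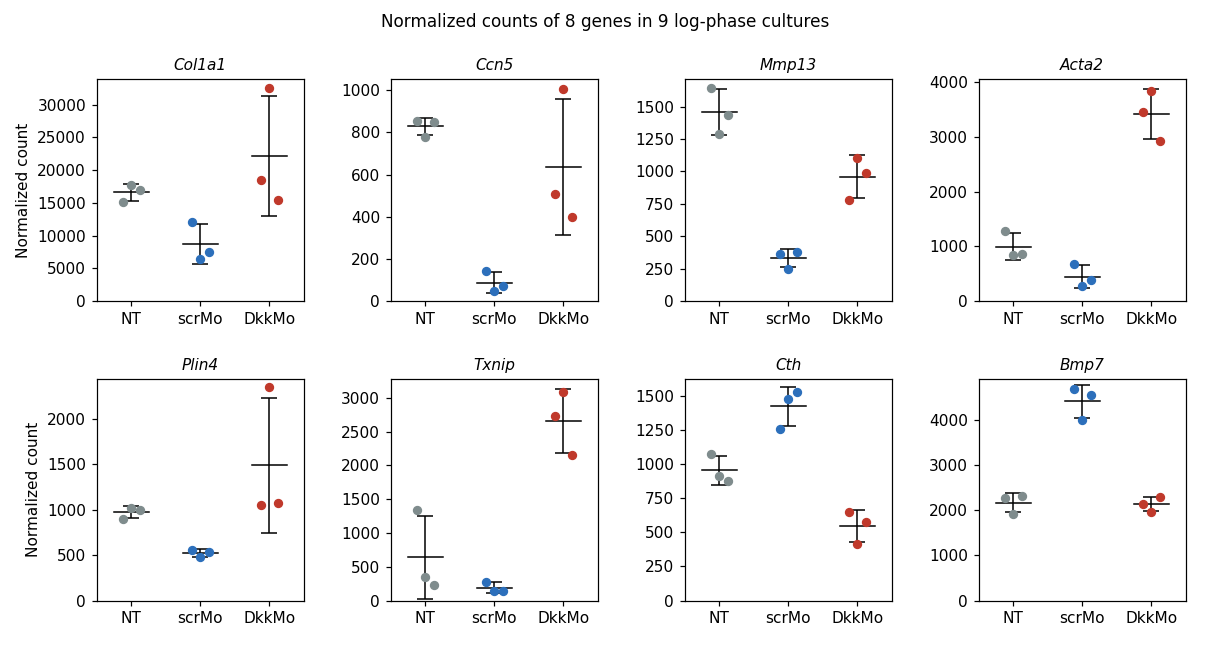
Normalized counts of 8 genes in the 3 NT, 3 scrMo and 3 DkkMo log-phase cultures; points are cultures in the order of their replicate numbers, the horizontal line is the mean and the error bar the SD. DkkMo exceeded both other groups for Acta2 and Txnip, lay between scrMo and NT for Mmp13, and lay with NT, below scrMo, for Bmp7.

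Serine, glycine and one-carbon genes followed with smaller differences, 4 of 22 passing downward and 2 upward with a median of -0.047. Mthfd2, the mitochondrial folate enzyme, had 5219, 3894 and 4993 with DkkMo and 5914, 5867 and 5832 with scrMo (-0.31 ± 0.071), and Psph (-0.26) and Shmt2 (-0.25) fell, while Tyms, thymidylate synthase, rose by 0.39. Only 1 gene passed downward when DkkMo replicate 2 was left out, 2 without DkkMo replicate 3 or either of scrMo replicates 1 and 2, and 7 without DkkMo replicate 1. Nucleotide synthesis contained a rising subset, the ribonucleotide reductase subunits Rrm2 (0.84) and Rrm1 (0.63) and thymidine kinase, Tk1 (0.66), all 3 called DE, together with Dck (0.51), in a list of 34 with 7 upward, 3 downward and a median of -0.025. Rrm2 had 1587, 2449 and 1669 with DkkMo and 1059, 810.0 and 936 with scrMo, without overlap. Rrm2 was the 1 member still DE without DkkMo replicate 2, when none passed downward, whereas 6 did without DkkMo replicate 1. Enzymes of the pentose phosphate pathway did not pass, G6pdx at 0.051, Pgd at 0.0085 and Tkt at 0.012.

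Redox enzymes were divided. Of 40 genes, 11 passed upward and 6 downward, with a median of 0.028. The upward calls fell to 7 without DkkMo replicate 1, DkkMo replicate 2 or scrMo replicate 3 and to 6 without scrMo replicate 2. Cbr2, a carbonyl reductase, had 3133, 4878 and 2472 with DkkMo, 925, 327 and 482 with scrMo and 1461, 1391 and 1311 in NT, every DkkMo culture lying above all others (2.18 ± 0.20). Also upward were the glutathione transferase Gstm2 (0.65), the quinone reductase Nqo1 (0.56) and Prdx4 (0.39), and downward the peroxiredoxins Prdx1 (-0.44) and Prdx6 (-0.36), thioredoxin reductase, Txnrd1 (-0.34), and Gclm (-0.24). Targets of NRF2 in this list were thus found on both sides, Nqo1 rising while Txnrd1 and Gclm fell, and Hmox1 (-0.23) and Srxn1 (-0.19) did not pass.

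Among 12 aldehyde dehydrogenases, 2 passed upward and 4 downward, the latter falling to 2 when DkkMo replicate 1, DkkMo replicate 2, scrMo replicate 2 or scrMo replicate 3 was left out. Aldh3a1, which clears aldehydes of lipid peroxidation, had 10604, 9607 and 8746 with DkkMo and 18849, 17413 and 14932 with scrMo (-0.80 ± 0.099) and was the DE member. Aldh1a1 was read at 11.1, 6.95 and 8.14 with DkkMo, 36.7, 34.9 and 38.1 with scrMo and 32.9, 19.2 and 33.9 in NT, and changed by -0.36 ± 0.057 on the compressed scale. Upward were Aldh3b1 (0.45) and Aldh7a1 (0.36).

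Changes in the lysosomal and skeletal lists were small, and none of their genes was DE. Of 31 lysosomal genes, 11 (35.5%) passed upward and 6 (19.4%) downward, with a median of 0.11. Among all genes these shares were 14.3% and 9.2%. The lysosomal median was -0.029 for DkkMo minus NT and -0.18 for scrMo minus NT, where 16 passed downward and 5 upward. Downward calls numbered 2 without DkkMo replicate 2 and 3 without scrMo replicate 2, and upward calls 7 without the latter. The membrane proteins Lamp2 (0.40) and Lamp1 (0.38) rose, whereas the cholesterol exporter Npc1 fell by 0.36 and the autophagy receptor Sqstm1 by 0.35. Of 15 osteoblast and chondroblast genes, 4 passed upward and 1, Msx2, downward, with a median of 0.10. Only 2 passed upward without scrMo replicate 3. Tnfrsf11b, osteoprotegerin, had 477, 893 and 681 with DkkMo and 375, 367 and 531 with scrMo, with overlap (0.46 ± 0.11). The osteoblast membrane protein gene Ifitm5 had 21767, 19721 and 18449.9 with DkkMo and 19082, 14876 and 15093 with scrMo, with overlap, and NT at 25446, 25752 and 27519. Runx2 (-0.16) and Sox9 (-0.22), the lineage factors of bone and cartilage, did not pass.

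The largest changes outside the lists were in secreted and signalling genes. Igfbp7, which binds insulin-like growth factors, had 3899, 4469 and 3118 with DkkMo, 1571, 683 and 955 with scrMo and 2039, 1837 and 1813 in NT (1.65 ± 0.16). Cxcl5, a neutrophil chemokine, had 1468, 1893 and 1795 with DkkMo and 311, 134 and 246 with scrMo (2.08 ± 0.13). The complement gene C3 changed by 1.53, with its highest group mean in NT, having 21330.2, 19575 and 22544 in NT against 11611, 14953 and 13561 with DkkMo and 6548, 2618 and 4978 with scrMo. Lower with DkkMo were Dusp5, a phosphatase induced by ERK (-1.07 ± 0.10), the kinase Plk3 (-0.86 ± 0.074), the chaperone Hspa1b (-1.05 ± 0.24), the autophagy gene Atg9b (-0.88 ± 0.071) and the receptor Gpr149 (-0.87 ± 0.12). Dusp5 had 6491, 4799 and 6208 with DkkMo, 13270.5, 11002 and 13130.4 with scrMo and 6600.4, 6186 and 6155 in NT, where DkkMo lay with NT. Gpr149 had 361, 339 and 476 with DkkMo, 697, 1018 and 1055 with scrMo and 699, 956 and 1167 in NT, and here scrMo overlapped NT while DkkMo lay below both.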

How the data were processed

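RNA of cultured MOSJ-Dkk-1 cells was sequenced in 18 cultures of 6 groups, 3 per group, of which the 9 log-phase cultures are described. The authors aligned reads to the mouse genome (GRCm38) and, per the submitters' processing notes, used HISAT2 2.1.0, SAMtools 1.9, Subread 2.0.0 with featureCounts, StringTie and DESeq2. The deposited values are on a log2 scale, made by the authors with the variance-stabilising transformation of DESeq2 from gene counts. Inverting it gave whole reads (within 0.05) for 100% of values, hence the normalized counts and read totals. All table columns used matched a sample, 0 being without one.

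Groups came from the labels. Limma 3.58.1 (R 4.3.3), with a variance trend on the mean and 1 mean for each of the 6 groups, was fitted to the log2 values of 16562 genes above the lowest value in at least 3 cultures (none was removed), leaving out the last 14 rows, which ranged over more than 7 log2 units within a group. P values were adjusted by Benjamini-Hochberg over all genes. A gene was called DE where its change on the variance-stabilised log2 scale exceeded log2 of 1.5 in either direction with an adjusted p under 0.05. The script was tested on simulated data.

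Genes named were the 10 largest rises and falls among DE genes without overlap of groups (predicted genes left out), the 3 largest passing changes of each list, the receptors and targets of Dkk-1 signalling, Aldh1a1 and Hsd17b4. Any other list member could be named with its value. A few genes are not reported here. The comparison, its lists and the markers were chosen with earlier results of these data known. Gene positions are from GENCODE M21 (GRCm38) and promoters from RefSeq (GRCm38.p6). Alternatives were another filter, log2 of the normalized count plus 1, limma voom on recovered reads, centred libraries, only the 6 cultures, the replicate number as a block, each culture left out and the 14 rows kept. Precision is set by 3 libraries per group.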

Additional observations from a re-analysis of the deposited data

Results flagged for a closer look

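The DkkMo minus scrMo difference of log phase was set against the same difference under nutritional stress, which followed confluence without a change of medium, in 3 further cultures of each morpholino group that share no sample with the log-phase cultures. The test was the interaction term of the limma fit, adjusted over all genes tested. Of the 89 genes named by rule, 69 differed between the conditions at an adjusted p below 0.05, beside 22.2% of all genes. Most of the 89 were chosen for their log-phase difference, which is part of the term, so that this count is no result about them. The values below are the log-phase difference minus the stress difference on the variance-stabilised log2 scale. A positive value for a gene that fell in log phase means that it fell further under stress.

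Among matrix genes the term was 1.98 for Col12a1, 1.61 for Col1a1, 0.94 for Col3a1, 1.52 for Pcolce, 0.85 for P4ha3, 1.52 for Ogn, 1.59 for Ccn3 and 1.73 for Ccn5. For the proteases and inhibitors it was 0.82 for Mmp13, 0.95 for Timp3 and 0.75 for Plau. Under stress Col1a1 and Ogn had DkkMo minus scrMo differences of -0.32 and 0.14. Contractile and SRF or YAP target genes gave 2.37 for Acta2, 0.84 for Actg2, 0.46 for Mylk, 0.68 for Ccn1 and 0.43 for Vcl, the difference of Acta2 under stress being 0.067.

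In the adhesion, growth factor and Wnt lists the term was 0.91 for Itga11, 0.81 for Itgb3, 0.47 for Parva, 1.35 for Id3, 0.84 for Smad6, -1.15 for Bmp7, 0.76 for Dkk3, -0.43 for Wnt7b and 0.23 for Ckap4. Skeletal and lysosomal genes gave 0.55 for Ifitm5, 0.55 for Lamp2, 0.31 for Lamp1 and -0.42 for Npc1.

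Lipid genes gave 1.29 for Insig1, 0.50 for Cyp51, 0.79 for Fads2, 0.33 for Elovl5, 0.33 for Me1, 0.42 for Cpt1c, -0.40 for Ppara, 0.33 for Hadhb, 0.53 for Hsd17b4, 1.27 for Plin4 and 0.55 for Lrp1. Insig1 had a stress difference of -0.47, on the other side of 0 from log phase, and Hsd17b4 one of -0.75, further below 0. Glucose and mitochondrial genes gave 2.51 for Txnip, 0.50 for Bhlhe40, 0.72 for Idh1, 2.18 for mt-Nd6, 1.41 for mt-Nd5, -0.51 for mt-Co1, 2.097 for mt-Rnr2 and 2.57 for mt-Rnr1. The mitochondrial transcripts went in different directions under stress, with differences of -1.77 for mt-Nd6, -1.02 for mt-Nd5, 0.90 for mt-Co1 and -3.42 for mt-Rnr2.

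Amino acid and one-carbon genes gave -0.70 for Chac1, -1.28 for Atf3, 0.47 for Tyms, -0.41 for Mthfd2 and -0.42 for Psph, whereas the term of Cth did not pass. Redox, nucleotide and aldehyde genes gave 2.17 for Cbr2, 0.49 for Gstm2, 1.32 for Nqo1, 0.76 for Rrm2, 0.61 for Tk1, 0.68 for Rrm1, -0.40 for Aldh3a1 and 0.44 for Aldh3b1. Outside the lists it was 2.41 for Cxcl5, 2.20 for Igfbp7, 1.62 for C3, -1.21 for Dusp5, -1.91 for Hspa1b, -0.99 for Atg9b, -1.16 for Gpr149 and -1.10 for Plk3.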

How the results depend on the processing

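Depth and n limit these results to changes that exceed the spread of 3 libraries per group. Of the 326 DE genes (275 upregulated, 51 downregulated), leaving out 1 culture at a time gave 204 to 418, with 173 to 359 upregulated and 31 to 64 downregulated. Scale mattered more, since the deposited values compress genes with few reads. Calls numbered 1158 (880 and 278) on log2 of the normalized count plus 1 and 1136 (890 and 246) with limma voom on the recovered reads. Among genes above the median gene alone there were 199, 153 upregulated, as fewer genes were tested. Centring each library on its median lowered every log2 fold change by 0.065 and gave 278 calls (207 and 71). Fitting only the 6 cultures gave 304.

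With log2 of the normalized count plus 1 and with voom, the list medians became 0.58 and 0.59 for the collagen chains, 0.73 in both for non-collagen matrix proteins, 0.43 in both for proteases and inhibitors, 0.23 in both for integrins, laminins and cadherins, and 0.26 in both for osteoblast and chondroblast genes. Among genes above the median gene the medians of the collagen chains and the osteoblast and chondroblast genes were 0.61 and 0.036. Centred libraries gave 0.21 for proteases and inhibitors, 0.041 for SRF and YAP targets, 0.051 for fatty acid synthesis, 0.025 for fatty acid oxidation, -0.089 for lipid storage, -0.046 for the citric acid cycle, -0.11 for serine and one-carbon metabolism, -0.090 for nucleotide synthesis, -0.078 for aldehyde dehydrogenases, 0.084 for integrins, laminins and cadherins, -0.0081 for TGF-beta and BMP genes, 0.0088 for Wnt genes and 0.039 for osteoblast and chondroblast genes. The medians of the citric acid cycle and of TGF-beta and BMP genes thus changed sign, as did those of the nuclear-encoded respiratory chain (-0.053) and of redox enzymes (-0.037). Centring moved every list median, and the median over all genes, by the same 0.065. The distance of each list from the median over all genes therefore stayed the same.

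With 1 culture left out, list medians ranged from 0.41 to 0.66 for non-collagen matrix proteins, 0.22 to 0.29 for proteases and inhibitors, 0.25 to 0.35 for contractile genes, 0.067 to 0.16 for SRF and YAP targets, -0.051 to 0.026 for lipid storage, 0.14 to 0.48 for MondoA genes, 0.089 to 0.35 for mitochondrially encoded genes and 0.092 to 0.25 for integrins, laminins and cadherins. Glycolysis reached 0.14 without scrMo replicate 2, and Wnt genes 0.014 without DkkMo replicate 2, moves within 1 SD of the replicates. Medians near 0 changed sign in the nuclear-encoded respiratory, redox, nucleotide and aldehyde dehydrogenase lists too.

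Same-numbered cultures deviated together for numbers 1 and 3 but not for number 2, and the main fit took no account of the number. Deviations from the group means of same-numbered DkkMo and scrMo cultures correlated at 0.624, -0.0487 and 0.570, and each culture of numbers 1 and 3 correlated best with its own number while those of number 2 did not. With the replicate number as a block 316 genes were DE (265 and 51), and of the 89 named genes the calls of Lox, Lrp1, Pdk1, Pfkl, Idh1, Idh3b, Aco1, Psph and Tnfrsf11b were lost. Under the block 3 fatty acid oxidation genes passed upward and 4 downward, 4 glycolytic genes upward with none DE, 7 cholesterol genes and 6 SRF and YAP targets upward, 15 ATF4 targets, 2 serine and one-carbon genes and none of the citric acid cycle downward. With only the 6 cultures 22 of the 89 lost their call, and with 1 culture left out between 2 and 7 did. These fits hold fewer cultures, and that of the 6 cultures also takes its spread from the DkkMo and scrMo groups alone. Which of these cost the calls was not tested. All 89 kept their side of the threshold with the 14 rows kept, on the other log2 scale and with voom. The fit without a filter was the same as the main fit, since the filter removed no gene, and is no check. Kremen1 passed without DkkMo replicate 1 (0.21, adjusted p = 0.0308). Axin2 and Lrp6, which did not pass under any setting, changed sign, Axin2 at -0.031 with centred libraries and -0.024 without DkkMo replicate 2 and -0.030 without scrMo replicate 1, and 0.072 at most without DkkMo replicate 1, and Lrp6 at 0.067 without DkkMo replicate 1, -0.12 without scrMo replicate 1, 0.011 without scrMo replicate 2 and 0.036 without scrMo replicate 3.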
